A study of Mus musculus with 12 samples.

Results

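The genes described are the 26 protein-coding genes whose lowest level in any WT tumour was at least 2.5 times their highest level in any Tn tumour. They were selected on these measured levels out of 10868 protein-coding genes that averaged 5 CPM or more (the count of a gene per 1000000 counts of all genes in that tumour) in WT tumours, in a table of 57186 genes. In descending order of that ratio they were Adamtsl3, Acsl6, Pgbd5, Tenm4, Lmo1, Arhgef17, D17H6S56E-5, B4galnt3, Lrrc55, Col11a1, Pcsk6, Epha3, Ctsk, Slc9b2, Insyn1, Dcstamp, Vcan, Sall2, Adamts8, Tmem200a, Prom2, Tnc, Lrrc15, Hsd11b2, Peg10 and Lrp4. Since the choice used the Tn and WT levels themselves, those levels are a description and carry no test. The 26 genes are 0.239% of the 10868. In the same set, 1225 genes (11.3%) had every Tn tumour below every WT tumour by any margin. The same rule turned round, with at least 5 CPM on average in Tn tumours and the lowest Tn level at least 2.5 times the highest WT level, picked 14 of 10893 genes (0.129%).

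The samples were 12 tumours formed in mice by 4T1 cells, which were derived from a mammary tumour of a mouse and serve to study triple-negative disease. In 6 of them, called Tn here, the cells carried a Cosmc gene silenced with CRISPR/Cas9, and in the other 6, called WT, the cells were the parental line. Cosmc is the protein of C1galt1c1, a chaperone without which the enzyme that extends O-linked glycans does not fold, so that the glycans stop at the Tn antigen, a single N-acetylgalactosamine on serine or threonine. RNA of whole tumour tissue was sequenced after poly(A) selection, and the labels put all 12 libraries in 1 batch and choose the tumours across sizes. The labels do not say whether the silenced cells were a single clone, and they give no strain, sex or age of the host mice. All library numbers of the Tn tumours are lower than those of the WT tumours, so the order of handling and the group cannot be told apart.

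The table held 113575859 to 156880766 counts per tumour, both reads of a pair counted, while the series text gives 20000000 to 30000000 reads per sample. C1galt1c1, on chromosome X, had 10.4 to 12.2 CPM in Tn tumours, against 15.5 to 22.7 CPM in WT tumours. The groups did not overlap, and the gene fell (log2 fold change -0.80 ± 0.11, adjusted p = 0.000201, edgeR). Krt8 and Krt18, keratins of simple epithelium, averaged 985 ± 224 and 984 ± 220 CPM in Tn tumours and 1159 ± 258 and 1207 ± 234 CPM in WT tumours (SD, n = 6 each), so the carcinoma cell type named in the labels was present in both groups. A few tumours stood apart in other cell types. Summed over the marker lists used below, B cell genes reached 1363 CPM in Tn 4, against a median of 37.7 CPM over Tn tumours and 8.43 CPM over WT tumours. Keratinocyte genes reached 2850 CPM in Tn 6, against medians of 106 CPM in Tn and 242 CPM in WT tumours, and adipocyte genes reached 1256 CPM in WT 6, against medians of 84.0 CPM in Tn and 338 CPM in WT tumours. Without these 3 tumours the rule picked 45 genes, 25 of them among the 26, with Tmem200a left out.

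The share left in Tn tumours varied widely. The Tn mean as a share of the WT mean ran from 0.571% for Adamtsl3 to 23.1% for Lrrc15, with a median of 11.9%. It was under 1% for 1 gene, under 5% for 5 genes, under 10% for 11 genes and under 20% for 22 genes. None of the 26 had a count of 0 in any tumour, and the lowest count was 6, for Pgbd5 in Tn 5. The words "nearly lost" thus hold for a few of these genes, and the other 21 kept 5% or more of the WT mean. The margin itself was crossed narrowly by Lrp4 with a ratio of 2.5, by Peg10 with 2.51 and by Hsd11b2 with 2.60. Just outside it were Mmp17 with 2.49 and Ism1 with 2.42.

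**Figure D1:**
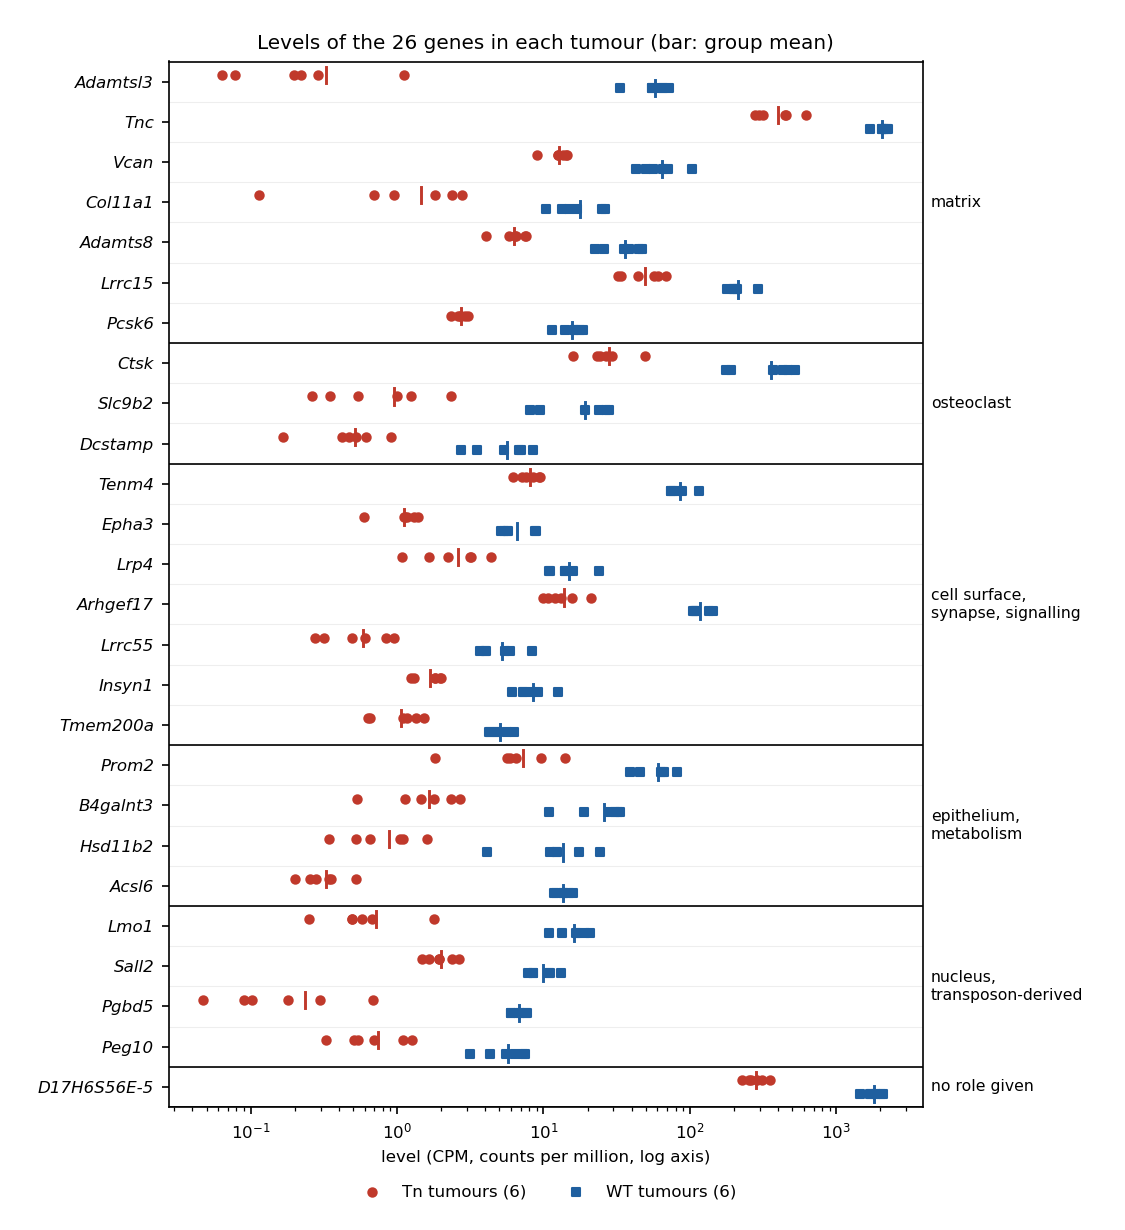
Levels of the 26 genes in CPM on a log axis, with 1 point per tumour, Tn tumours (circles) above WT tumours (squares) in each row and a bar at the mean of each group of 6. In every row the circles lie left of the squares, as the rule requires, by the widest margin for Adamtsl3, Acsl6 and Pgbd5.

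Many of these genes belong to the matrix and to the cells that build or remove it. In a carcinoma, fibroblasts and pericytes lay down collagens, tenascin and proteoglycans, proprotein convertases and ADAMTS proteases trim them, and osteoclast-type cells of the myeloid line dissolve matrix with acid and cathepsin K. The same genes can be used by carcinoma cells, and a bulk library does not record which cell a read came from. In such a library fewer cells of a type and less RNA per cell cannot be told apart.

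The 5 genes with a Tn mean under 5% of the WT mean were Adamtsl3, Acsl6, Pgbd5, Lmo1 and Slc9b2. A window at a RefSeq start of each is shown because these genes had the lowest Tn shares of the 26. The windows also show how unlike they are in CpG content. Each window is the sequence from 250 bases before to 50 bases after a RefSeq start (table on GRCm38.p6), placed by an exact match on GRCm39. It is printed 5′ to 3′ along the gene, with every CpG in capitals. The windows are Adamtsl3 at chr7:81984652-81984951 on the plus strand, Acsl6 at chr11:54205479-54205778 on the plus strand, Pgbd5 at chr8:125160626-125160925 on the minus strand, Lmo1 at chr7:108774365-108774664 on the minus strand and Slc9b2 at chr3:135013211-135013510 on the plus strand. The RefSeq start of Lmo1 is that of the Ensembl canonical transcript, while those of Slc9b2, Acsl6, Adamtsl3 and Pgbd5 are 32, 33, 257 and 553 bases away from it. The Acsl6 and Pgbd5 windows lie inside the counted spans of these genes (chr11:54194624-54255582 and chr8:125095788-125166397). Their CpG counts are thus not those of the outer start of the gene.
Adamtsl3: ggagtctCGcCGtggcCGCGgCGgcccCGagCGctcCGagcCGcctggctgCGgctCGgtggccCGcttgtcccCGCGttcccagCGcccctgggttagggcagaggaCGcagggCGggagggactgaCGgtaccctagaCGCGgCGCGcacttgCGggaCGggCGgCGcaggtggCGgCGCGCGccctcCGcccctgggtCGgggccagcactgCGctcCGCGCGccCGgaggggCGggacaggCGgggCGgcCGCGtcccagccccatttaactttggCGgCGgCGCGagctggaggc
Acsl6: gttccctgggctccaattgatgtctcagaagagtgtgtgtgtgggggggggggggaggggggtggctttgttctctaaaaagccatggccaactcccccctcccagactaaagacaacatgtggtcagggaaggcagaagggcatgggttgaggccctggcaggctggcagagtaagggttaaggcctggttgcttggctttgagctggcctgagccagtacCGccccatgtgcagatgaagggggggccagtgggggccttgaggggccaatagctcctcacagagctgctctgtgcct
Pgbd5: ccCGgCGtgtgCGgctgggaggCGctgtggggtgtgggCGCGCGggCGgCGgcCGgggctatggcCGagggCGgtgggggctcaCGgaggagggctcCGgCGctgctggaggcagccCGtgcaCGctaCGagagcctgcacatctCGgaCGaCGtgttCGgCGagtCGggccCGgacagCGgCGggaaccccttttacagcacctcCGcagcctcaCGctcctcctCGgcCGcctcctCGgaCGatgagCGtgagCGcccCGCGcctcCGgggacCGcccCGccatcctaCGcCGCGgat
Lmo1: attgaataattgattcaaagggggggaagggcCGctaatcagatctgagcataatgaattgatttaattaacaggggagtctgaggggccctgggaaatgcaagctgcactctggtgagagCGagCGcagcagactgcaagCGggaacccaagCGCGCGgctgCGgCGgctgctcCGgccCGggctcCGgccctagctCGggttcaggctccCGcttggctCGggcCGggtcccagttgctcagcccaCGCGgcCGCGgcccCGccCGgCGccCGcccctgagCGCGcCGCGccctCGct
Slc9b2: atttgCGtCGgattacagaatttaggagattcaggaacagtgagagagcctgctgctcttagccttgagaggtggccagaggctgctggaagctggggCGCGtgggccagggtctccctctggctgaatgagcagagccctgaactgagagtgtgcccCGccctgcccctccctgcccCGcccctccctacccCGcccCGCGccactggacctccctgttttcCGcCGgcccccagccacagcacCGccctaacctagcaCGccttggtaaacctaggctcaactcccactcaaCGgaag
The Adamtsl3, Pgbd5 and Lmo1 windows hold 46, 43 and 29 CpG dinucleotides, the Slc9b2 window holds 14 and the Acsl6 window holds 1. Of the 26 genes, 20 had an entry in the RefSeq table, and Adamts8, Arhgef17, Dcstamp, Hsd11b2, Lrp4 and Peg10 were not matched. The 20 windows held a median of 13 CpG, from 1 in Acsl6 to 52 in Pcsk6, beside a median of 22 over the 8525 windows matched among the 10868 genes. Windows with under 5 CpG made up 3 of the 20 (15%, Acsl6, Ctsk and Lrrc55), beside 5.04% of the 8525. The median GC content was 61.3% in the 20 windows and 62.0% in the 8525. A set of 5 short motifs was looked up on both strands, with matches of different motifs allowed to overlap. AP-1 (TGANTCA) was present in 2 of the 20 windows, those of Lmo1 and Lrrc15, and in 4.93% of the 8525. TEAD (GGAATG) was in the Epha3 window and in 11.5% of all windows, RUNX (TGTGGT) in the Acsl6 window and in 11.8%, GAS (TTCNNNGAA) in the Epha3 window and in 6.53%, and the TATA box (TATAAA) in the Tnc window and in 6.67%. No motif was shared by more than 2 of the 20 windows, and these letters say nothing of which factor bound there.

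Of the 7 matrix genes, Adamtsl3 had the lowest share left. It encodes a secreted ADAMTS-like glycoprotein that has the binding modules of the ADAMTS proteases and no protease domain, and it lies at chr7:81984902-82263658, plus strand. Its level was a median of 0.209 CPM in Tn tumours (lowest 0.0637, highest 1.12), against a median of 59.2 CPM in WT tumours (lowest 33.3, highest 72.0). Tn 4 alone was above 1 CPM, with 149 counts, while the other 5 Tn tumours had 10 to 38 counts and the WT tumours 4192 to 9094 counts. The Tn mean was 0.571% of the WT mean, 0.328 ± 0.396 against 57.4 ± 13.5 CPM (SD, n = 6 each). The other ADAMTS-like genes differed among themselves. Adamtsl1 fell, to 1.74 ± 0.53 CPM in Tn tumours, against 5.68 ± 1.90 CPM in WT tumours (log2 fold change -1.67 ± 0.26, adjusted p = 0.000509). Thsd4, which encodes ADAMTS-like 6, averaged 12.3 ± 13.8 CPM in Tn and 2.56 ± 1.89 CPM in WT tumours (log2 fold change 2.31 ± 0.84, adjusted p = 0.0474), a call lost under 9 of 18 alternatives. Adamtsl2, Adamtsl4, Adamtsl5 and Papln were not called. Over all genes tested by edgeR, 17.4% fell and 19.5% rose, and over the protein-coding genes 18.7% fell and 22.4% rose.

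Tnc and Vcan are the 2 large matrix components of the set. Tenascin C is a hexameric glycoprotein laid down in wounds and in tumour stroma, and Tnc (chr4:63878022-63965252, minus strand) had 279 to 616 CPM in Tn tumours (median 382), against 1687 to 2262 CPM in WT tumours (median 2085). Versican is a large chondroitin sulfate proteoglycan that binds hyaluronan, and Vcan (chr13:89803431-89890628, minus strand) had a median of 13.1 CPM in Tn tumours (lowest 9.01, highest 14.6), against a median of 60.7 CPM in WT tumours (lowest 43.0, highest 104). The Tn mean was 19.5% of the WT mean for Tnc and 19.7% for Vcan. Per kilobase of exon, Tnc was among the 3 most abundant of the 26 in WT tumours with 265 RPKM (CPM per kilobase of exon), while Vcan had 4.48 RPKM. A lncRNA transcribed from the opposite strand overlaps each of them, 8030451A03Rik for Tnc and Gm4117 for Vcan, and since the counting ignored strand reads of the 2 strands cannot be told apart in the shared bases. Gm4117 averaged 3.46 CPM in Tn and 2.14 CPM in WT tumours, beside means of 12.7 CPM in Tn and 64.7 CPM in WT tumours for Vcan.

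Col11a1, Adamts8, Lrrc15 and Pcsk6 completed the matrix genes. The α1 chain of the fibril collagen type XI comes from Col11a1 (chr3:113824189-114014367, plus strand), which had 0.113 to 2.78 CPM in Tn tumours (median 1.39), against 10.5 to 26.2 CPM in WT tumours (median 16). Its lowest Tn value, in Tn 6, rests on 16 counts. Adamts8 (chr9:30853858-30875134, plus strand), a secreted metalloprotease, had a median of 6.41 CPM in Tn tumours (lowest 4.05, highest 7.64), against a median of 36.9 CPM in WT tumours (lowest 22.3, highest 47.4). Lrrc15 (chr16:30088120-30102074, minus strand), a leucine-rich repeat membrane protein known from cancer-associated fibroblasts, had 32.1 to 68.5 CPM in Tn tumours (median 50.4), against 179 to 289.7 CPM in WT tumours (median 201). In it the Tn tumours kept 23.1% of the WT mean, the largest share of the 26. The proprotein convertase PACE4, encoded by Pcsk6 (chr7:65511482-65700134, plus strand), cleaves precursors of growth factors and proteases outside the cell, and its gene had a median of 2.73 CPM in Tn tumours (lowest 2.32, highest 3.07), against a median of 16.3 CPM in WT tumours (lowest 11.4, highest 18.8). Its Tn tumours were the most alike of any of the 26 genes, with a coefficient of variation (CV) of 9.42%.

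Of the tested ADAMTS and Pcsk relatives of these genes, more fell than rose. Of 16 tested ADAMTS genes other than Adamts8, 10 fell (also 10 by DESeq2) and none rose by either tool, with 1 higher at an unadjusted p under 0.05 by edgeR. Adamts2, the procollagen I N-proteinase, had 56.8 ± 9.0 CPM in Tn and 158.8 ± 28.2 CPM in WT tumours (log2 fold change -1.45 ± 0.13, adjusted p = 2.04e-05). Adamts12 (log2 fold change -1.66 ± 0.19, adjusted p = 8.24e-05) and Adamts15 (log2 fold change -1.92 ± 0.50, adjusted p = 0.0104) fell too. Pcsk5, the closest convertase to Pcsk6, fell to 9.67 ± 3.05 CPM in Tn tumours, against 45.5 ± 12.8 CPM in WT tumours (log2 fold change -2.19 ± 0.25, adjusted p = 8.76e-05). Pcsk7 rose (log2 fold change 0.21 ± 0.07, adjusted p = 0.0449) with its call lost under 14 of 18 alternatives, and Pcsk4 was not called. Col11a2, the 1 tested relative of Col11a1, was not called either (log2 fold change 0.56 ± 0.32, adjusted p = 0.187). Of the fibroblast markers other than Lrrc15, 10 of 11 fell, among them Col1a1 (log2 fold change -1.84 ± 0.22, adjusted p = 0.000111) and Postn (log2 fold change -1.44 ± 0.16, adjusted p = 8.76e-05), and Pdgfra, a receptor of fibroblasts and their precursors, rose (log2 fold change 1.03 ± 0.21, adjusted p = 0.00247). Summed, the fibroblast markers came to 3136 to 4640 CPM in Tn tumours, against 8109 to 21340 CPM in WT tumours. Of the pericyte and smooth muscle markers 8 of 10 fell, and summed they came to 230.3 to 579 CPM in Tn tumours, against 589 to 1001 CPM in WT tumours. Their part in the levels of the matrix genes was not tested.

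Ctsk, Slc9b2 and Dcstamp are known together from osteoclasts, the multinucleate cells of the monocyte line that resorb bone. Cathepsin K is the acid protease with which they digest collagen, and Ctsk (chr3:95406567-95416673, plus strand) had 15.9 to 49.2 CPM in Tn tumours (median 25.5), against 176 to 524 CPM in WT tumours (median 399). The sodium/proton exchanger NHA2 is encoded by Slc9b2 (chr3:135013461-135051148, plus strand), which had a median of 0.768 CPM in Tn tumours (lowest 0.261, highest 2.32), against a median of 21.5 CPM in WT tumours (lowest 8.07, highest 28.1). DC-STAMP is a membrane protein required for the fusion of osteoclast precursors, and Dcstamp (chr15:39609326-39624334, plus strand) had 0.166 to 0.907 CPM in Tn tumours (median 0.497), against 2.72 to 8.47 CPM in WT tumours (median 6.13). The Tn means were 7.80%, 4.97% and 9.13% of the WT means for Ctsk, Slc9b2 and Dcstamp. In all 3 genes Tn 6 was the highest Tn tumour, and WT 1 and WT 5 were the lowest WT tumours. Ctsk was among the 3 most abundant of the 26 genes per kilobase of exon in WT tumours, at 238 RPKM.

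The other osteoclast markers split. Of the 12 tested outside the 26, 5 fell and 1 rose. DESeq2 called 6 lower and 1 higher, and by edgeR 6 were lower at an unadjusted p under 0.05. Acp5, the tartrate-resistant acid phosphatase, had 79.0 ± 15.9 CPM in Tn and 343 ± 150 CPM in WT tumours (log2 fold change -2.09 ± 0.29, adjusted p = 0.000286). Oscar, an osteoclast co-receptor for collagen, had 0.123 ± 0.163 CPM in Tn and 3.94 ± 1.86 CPM in WT tumours (log2 fold change -4.93 ± 0.87, adjusted p = 0.00117), and with a lower limit of 1 CPM in place of 5 CPM it met the rule. Atp6v0d2, a proton pump subunit used in osteoclast fusion, had 3.68 ± 2.42 CPM in Tn and 26.8 ± 12 CPM in WT tumours (log2 fold change -2.82 ± 0.52, adjusted p = 0.0016). Mmp9 (log2 fold change -2.20 ± 0.50, adjusted p = 0.00523) and Itgb3 (log2 fold change -0.33 ± 0.07, adjusted p = 0.00424) also fell, and the proton pump subunit Tcirg1 rose (log2 fold change 0.37 ± 0.09, adjusted p = 0.00555). Tnfrsf11a, the receptor RANK, had 12.2 ± 4.3 CPM in Tn and 12.8 ± 4.0 CPM in WT tumours (log2 fold change -0.02 ± 0.26, adjusted p = 0.952). Nfatc1, the transcription factor of osteoclast formation, had 76.6 ± 14.2 CPM in Tn and 79.3 ± 13 CPM in WT tumours (log2 fold change -0.01 ± 0.12, adjusted p = 0.941). Ocstamp, Siglec15, Clcn7 and Ostm1 were not called either. Of 12 genes of RANK and osteoclast signalling, 4 rose, the immune receptor adaptors Fcer1g (log2 fold change 1.03 ± 0.25, adjusted p = 0.0072) and Tyrobp (log2 fold change 0.85 ± 0.24, adjusted p = 0.0151), Trem2 (log2 fold change 0.91 ± 0.24, adjusted p = 0.0114) and the kinase Syk (0.93), and Oscar fell.

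Macrophages share a precursor with osteoclasts. Of 10 macrophage markers 6 rose, among them C1qa, C1qb and C1qc (1.61, 1.66 and 1.63). None fell by edgeR or DESeq2, and none was lower at an unadjusted p under 0.05. Summed, they came to 1275 to 3615 CPM in Tn tumours, against 883 to 1358 CPM in WT tumours. Next to Ctsk on chromosome 3, 17.4 kb away, lies Ctss, which encodes the cathepsin S of macrophages and other antigen-presenting cells. It rose to 711 ± 268 CPM in Tn tumours, against 269 ± 87 CPM in WT tumours (log2 fold change 1.45 ± 0.27, adjusted p = 0.00163). Of these neighbouring cathepsin genes, Ctsk was thus lower and Ctss higher in Tn tumours.

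**Figure D2:**
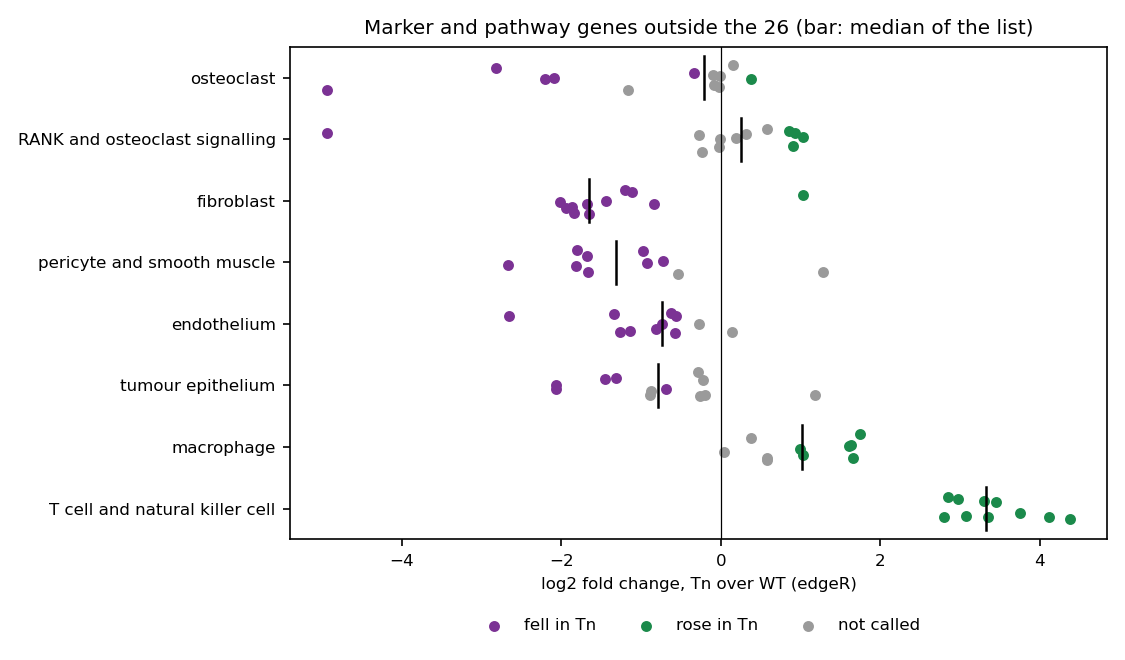
Log2 fold changes (Tn over WT, edgeR) of tested marker and pathway genes outside the 26, 1 point per gene, with a bar at the median of each list. Osteoclast markers spread from -4.93 to 0.37, most fibroblast, pericyte and endothelial markers lie left of 0, and macrophage and T cell markers lie right of it.

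The 7 genes of the cell surface, the synapse and signalling had 9.38% to 21.3% of the WT mean left. Teneurin 4, a large transmembrane adhesion protein known from neural wiring and from oligodendrocytes, is encoded by Tenm4 (chr7:95820453-96560300, plus strand), which had a median of 8.03 CPM in Tn tumours (lowest 6.22, highest 9.51), against a median of 80.6 CPM in WT tumours (lowest 74.2, highest 115). Arhgef17 (chr7:100518959-100581314, minus strand), a guanine nucleotide exchange factor for small GTPases, had 9.91 to 21.3 CPM in Tn tumours (median 12.6), against 104 to 145 CPM in WT tumours (median 109). Their CV over WT tumours was 18.1% for Tenm4, in which WT 1 was high, and 14.5% for Arhgef17. Every Tn tumour still had 876 or more counts of Tenm4 and 1399 or more of Arhgef17. The ephrin receptor kinase gene Epha3 (chr16:63363897-63684538, minus strand) had a median of 1.15 CPM in Tn tumours (lowest 0.595, highest 1.39), against a median of 5.68 CPM in WT tumours (lowest 5.14, highest 8.93). Its lowest value, in Tn 6, rests on 84 counts.

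Lrp4 (chr2:91287856-91344124, plus strand) is the receptor for agrin that activates the kinase MuSK at the neuromuscular junction, and it also takes part in Wnt signalling in bone and epithelium. It had 1.08 to 4.38 CPM in Tn tumours (median 2.69), against 11 to 23.8 CPM in WT tumours (median 14). In the agrin and MuSK pathway Dok7, the adaptor that activates MuSK from inside the cell, fell to 0.0858 ± 0.0361 CPM in Tn tumours, against 2.58 ± 0.78 CPM in WT tumours (log2 fold change -4.85 ± 0.33, adjusted p = 2.84e-06). Musk itself was below 0.1 CPM on average in both groups and was not tested. Agrn had 284 ± 65 CPM in Tn and 236 ± 40 CPM in WT tumours (log2 fold change 0.31 ± 0.15, adjusted p = 0.135). Rapsn, the anchor of acetylcholine receptors, rose (log2 fold change 0.91 ± 0.29, adjusted p = 0.0294), a call lost under 5 of 18 alternatives. Of the 7 tested genes of the pathway outside the 26, Dok7 and Rapsn were the 2 that were called.

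Lrrc55, Insyn1 and Tmem200a complete the surface genes. LRRC55 is an auxiliary subunit of the large-conductance calcium-activated potassium channel, and Lrrc55 (chr2:84992678-85027541, minus strand) had a median of 0.549 CPM in Tn tumours (lowest 0.276, highest 0.953), against a median of 4.76 CPM in WT tumours (lowest 3.70, highest 8.38). Insyn1 (chr9:58395886-58407063, plus strand), a component of inhibitory synapses in neurons, had 1.25 to 2.00 CPM in Tn tumours (median 1.81), against 6.05 to 12.5 CPM in WT tumours (median 7.89). Tmem200a (chr10:25788229-25954950, minus strand), a transmembrane protein, had a median of 1.13 CPM in Tn tumours (lowest 0.638, highest 1.53), against a median of 4.83 CPM in WT tumours (lowest 4.27, highest 6.32). All 3 lay under 13 CPM in every WT tumour, and each Tn value rests on 39 to 309 counts. Markers of Schwann cells and nerve, the other neural cells a tumour can hold, came to 35.5 to 72.1 CPM in Tn tumours, against 48.1 to 74.8 CPM in WT tumours, and 2 of 7 fell, a count that was 4 without Tn 4 and 0 without any 1 of Tn 2, Tn 3, Tn 5, Tn 6, WT 3, WT 5 or WT 6.

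Prom2, B4galnt3, Hsd11b2 and Acsl6 are genes of epithelium and of metabolism. Prominin 2 is a cholesterol-binding protein of plasma membrane protrusions of epithelial cells, and Prom2 (chr2:127368393-127383387, minus strand) had 1.80 to 14.1 CPM in Tn tumours (median 6.21), against 38.9 to 81.7 CPM in WT tumours (median 64.5). B4galnt3 (chr6:120180034-120271520, minus strand), which adds N-acetylgalactosamine to N-acetylglucosamine and so builds the LacdiNAc group on N- and O-linked glycans, had a median of 1.62 CPM in Tn tumours (lowest 0.529, highest 2.69), against a median of 29.7 CPM in WT tumours (lowest 10.9, highest 33.5). The enzyme that inactivates glucocorticoid in kidney and other mineralocorticoid target epithelia is encoded by Hsd11b2 (chr8:106245387-106250620, plus strand), which had 0.342 to 1.60 CPM in Tn tumours (median 0.846), against 4.14 to 24.3 CPM in WT tumours (median 12.2). WT 2 was the lowest WT tumour in all 3 genes, and Tn 1 or Tn 2 was the lowest Tn tumour. Of the tumour epithelium markers 5 of 12 fell, Cldn3 (log2 fold change -2.07 ± 0.40, adjusted p = 0.00204), Grhl2 (log2 fold change -1.31 ± 0.20, adjusted p = 0.000472), Krt7, Elf3 and Krt19, the last of which lost its call under 7 of 18 alternatives. Krt8 (log2 fold change -0.20 ± 0.18, adjusted p = 0.42), Krt18 and Epcam were not called. Summed, the epithelial markers came to 2140 to 3804 CPM in Tn tumours, against 2483 to 5197 CPM in WT tumours, and WT 2 was again the lowest WT tumour. Their part in the levels of Prom2, B4galnt3 and Hsd11b2 was not tested.

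Acsl6 (chr11:54194624-54255582, plus strand) activates long-chain fatty acids to acyl-CoA and is known from brain, where it handles docosahexaenoic acid. It had a median of 0.312 CPM in Tn tumours (lowest 0.202, highest 0.528), against a median of 13.7 CPM in WT tumours (lowest 11.9, highest 15.9), with 27 to 67 counts per Tn tumour. The groups lay 22.4-fold apart at their nearest values, the second largest gap of the 26. None of its 4 tested paralogues fell. Acsl3 rose to 126 ± 45 CPM in Tn tumours, against 68.1 ± 8.9 CPM in WT tumours (log2 fold change 0.93 ± 0.21, adjusted p = 0.00462), and Acsl1 (log2 fold change -0.94 ± 0.53, adjusted p = 0.181), Acsl4 (log2 fold change 0.12 ± 0.13, adjusted p = 0.519) and Acsl5 (log2 fold change -0.28 ± 0.15, adjusted p = 0.159) were not called. None of the 4 was lower at an unadjusted p under 0.05 by edgeR or called lower by DESeq2. Per kilobase of exon, Acsl6 had 1.38 RPKM in WT tumours. Beside the LacdiNAc enzyme, B4galnt1, which makes gangliosides, was not called (log2 fold change -0.22 ± 0.11, adjusted p = 0.152), and B4galnt2 rose at low level, to 0.351 CPM in Tn tumours, against 0.0626 CPM in WT tumours (2.5).

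The 4 remaining genes with a known role act in the nucleus or derive from mobile elements. Lmo1 (chr7:108737779-108774414, minus strand) is a LIM-only adaptor that joins transcription factors and is an oncogene of T cell leukaemia and neuroblastoma. It had 0.252 to 1.79 CPM in Tn tumours (median 0.536), against 10.9 to 20.7 CPM in WT tumours (median 16.8). Tn 6 stood above the other Tn tumours. Lmo2, the relative found in blood and endothelial cells, rose to 29.0 ± 10.5 CPM in Tn tumours, against 15.6 ± 3.0 CPM in WT tumours (log2 fold change 0.93 ± 0.23, adjusted p = 0.00694), and Lmo4 was not called (log2 fold change 0.13 ± 0.09, adjusted p = 0.268). Of the 9 tested genes of the LMO complex outside the 26, Lyl1 (log2 fold change 1.52 ± 0.32, adjusted p = 0.0034) and Lmo2 rose and Tal1 (-0.75) and Ldb2 fell (log2 fold change -0.73 ± 0.21, adjusted p = 0.0158), Ldb2 losing its call without Tn 4, Tn 6 and WT 6. Sall2 (chr14:52548629-52566219, minus strand), a zinc finger transcription factor, had a median of 1.94 CPM in Tn tumours (lowest 1.49, highest 2.65), against a median of 9.70 CPM in WT tumours (lowest 7.81, highest 13.1).

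Pgbd5 and Peg10 are genes that vertebrates made out of transposons. Pgbd5 (chr8:125095788-125166397, minus strand), derived from a piggyBac transposase, had 0.0473 to 0.685 CPM in Tn tumours (median 0.141), against 5.98 to 7.70 CPM in WT tumours (median 6.80). Tn 2 was the highest Tn tumour and was still below the lowest WT tumour by 8.73-fold. Pgbd1, the other tested Pgbd gene, rose (log2 fold change 1.01 ± 0.32, adjusted p = 0.0248) and lost its call without WT 4. Peg10 (chr6:4747306-4760517, plus strand), derived from a retrotransposon gag-pol gene and expressed from the paternal allele, had a median of 0.619 CPM in Tn tumours (lowest 0.326, highest 1.26), against a median of 5.99 CPM in WT tumours (lowest 3.17, highest 7.47). Sgce, the imprinted gene that starts 0.099 kb away and is read in the opposite direction, fell to 3.60 ± 0.83 CPM in Tn tumours, against 8.19 ± 1.78 CPM in WT tumours (log2 fold change -1.15 ± 0.18, adjusted p = 0.000589). Kcnq1ot1, a lncRNA expressed from the paternal allele on chromosome 7, met the same margin once genes of all types were admitted, with 0.142 to 0.539 CPM in Tn and 3.27 to 13.5 CPM in WT tumours, and it was the single gene so added. Peg3, also expressed from the paternal allele, had 4.22 ± 2.72 CPM in Tn and 7.89 ± 0.77 CPM in WT tumours. It was not called (log2 fold change -0.86 ± 0.32, adjusted p = 0.0506). Under 4 of the alternatives, DESeq2 among them, Peg3 was called lower in Tn. Peg12, the other tested Peg gene, fell (log2 fold change -1.35 ± 0.22, adjusted p = 0.000756). It had 0.583 ± 0.125 CPM in Tn and 1.53 ± 0.41 CPM in WT tumours.

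D17H6S56E-5 (chr17:35215654-35219393, minus strand) is a protein-coding gene to which no role is given here. It had 226 to 351 CPM in Tn tumours (median 272), against 1454 to 2090.0 CPM in WT tumours (median 1797). It was the most abundant of the 26 in WT tumours per kilobase of exon, at 594.7 RPKM, and its CV over WT tumours was 12.8%. The gene lies on the chromosome 17 segment that holds the major histocompatibility complex, where 50 of 101 tested neighbours within 1 Mb rose and 6 fell. Its immediate neighbours were not called, with 43.0 ± 3.5 CPM in Tn and 43.5 ± 4.8 CPM in WT tumours for Lsm2 (log2 fold change 0.02 ± 0.08, adjusted p = 0.856) and 348 ± 69 CPM in Tn and 398 ± 34 CPM in WT tumours for Vars1 (log2 fold change -0.16 ± 0.11, adjusted p = 0.267), which starts 0.57 kb away.

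By position the 26 genes were scattered over 14 chromosomes. Chromosome 7 held 5 of them (19.2%), Pcsk6, Adamtsl3, Tenm4, Arhgef17 and Lmo1, beside 7.21% of the 10868 genes, and no other chromosome held more than 3. These 5 spread over 43.3 Mb (chr7:65511482-108774414). The nearest pair was Tenm4 and Arhgef17, 3.96 Mb apart, so no pair lay within 1 Mb. Across that stretch 237 other protein-coding genes were tested, of which 48 fell (20.3%) and 33 rose (13.9%), beside 17.2% and 14.9% of the 908 on the rest of the chromosome.

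Most neighbours of the 26 genes, 354 of 602, were not called. Those 602 are the tested protein-coding genes within 1 Mb of either end, and they had a median log2 fold change of 0.08. Of these, 95 fell (15.8%) and 153 rose (25.4%), against 18.7% and 22.4% over all protein-coding genes. The window of D17H6S56E-5 alone held 101 of the 602, of which 50 rose and 6 fell. Of the 52 nearest tested genes, 1 on each side at any distance, 15 fell (28.8%) and 8 rose (15.4%). Some of the 52 lay beyond 1 Mb. Those 3824 kb from Lrrc55, 3089 kb from Tenm4 and 1077 kb from Tnc fell. The one 1907 kb from Sall2 rose, and the one 1490 kb from Col11a1 was not called. Around Adamtsl3, Sh3gl3 lay 28.3 kb away and had 6.56 ± 2.02 CPM in Tn and 6.83 ± 2.68 CPM in WT tumours (log2 fold change -0.03 ± 0.27, adjusted p = 0.94). Around Acsl6, Csf2 rose (log2 fold change 1.53 ± 0.31, adjusted p = 0.00231). Arhgef17 lay 5.52 kb from P2ry6, a nucleotide receptor known from macrophages, which rose (log2 fold change 1.34 ± 0.17, adjusted p = 0.000137), and P2ry2, next in line, fell (log2 fold change -1.82 ± 0.12, adjusted p = 2.76e-06) and missed the rule with a ratio of 2.32.

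Around Pgbd5, Lrrc15 and some other members more neighbours fell than rose, and single genes that fell near members are given after them. Around Pgbd5, 18 of 32 tested genes fell and 1 rose, though the nearest on each side, Galnt2 (log2 fold change -0.07 ± 0.12, adjusted p = 0.651) and Cog2 (log2 fold change 0.04 ± 0.07, adjusted p = 0.714), were not called. Around Lrrc15 6 of 12 fell, among them Cpn2 at 1.80 kb (log2 fold change -2.48 ± 0.57, adjusted p = 0.00533). Around Dcstamp 4 of 10 fell and 1 rose, and around Tmem200a 3 of 8 fell and 1 rose. Around Arhgef17 9 of 35 fell and 5 rose, and around Epha3 2 of 6 fell and 0 rose. Other windows went the other way, as around Hsd11b2, where 2 of 57 fell and 19 rose, and Insyn1, where 4 of 29 fell and 15 rose. Around Lrrc55 6 of 19 fell and 3 rose, and around Prom2 5 of 28 fell and 5 rose. Around Slc9b2 2 of 9 fell and 2 rose, and around Adamts8 1 of 9 fell and 1 rose. The genes named next are thus single genes of these windows. Near Lrrc55, the apelin receptor gene Aplnr, a marker of new vessels, fell to 8.18 ± 3.27 CPM in Tn tumours, against 53.1 ± 24 CPM in WT tumours (log2 fold change -2.66 ± 0.37, adjusted p = 0.000279). Near Prom2, Mal, a raft protein of epithelial and myelin membranes, fell to 0.168 ± 0.111 CPM in Tn tumours, against 3.66 ± 2.16 CPM in WT tumours (log2 fold change -4.43 ± 0.62, adjusted p = 0.000291), and its relative Mall fell too (log2 fold change -1.41 ± 0.23, adjusted p = 0.000661). Slc9b1, the paralogue 2.64 kb from Slc9b2, was low in both groups, with 0.0580 CPM in Tn and 0.175 CPM in WT tumours. It fell (log2 fold change -1.51 ± 0.43, adjusted p = 0.0158) and lost its call without Tn 4, Tn 6 and WT 6. Adamts15, 20.1 kb from Adamts8, is described above.

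**Figure D3:**
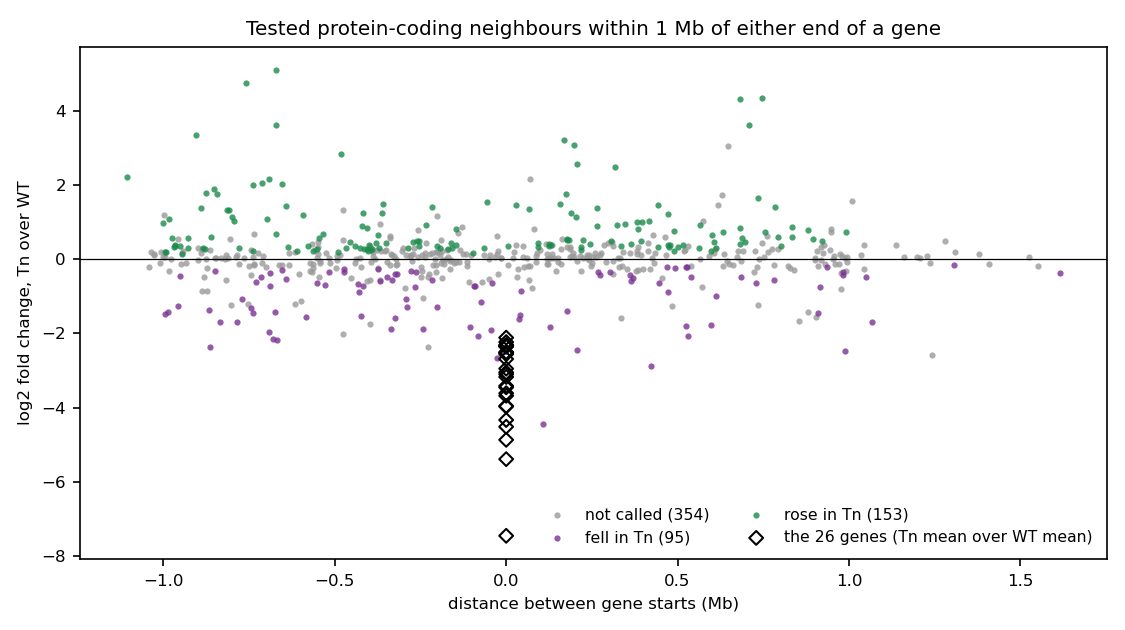
Log2 fold changes (Tn over WT, edgeR) of the 602 tested protein-coding genes within 1 Mb of either end of the 26 genes, against the distance between gene starts in Mb, with called genes coloured. Open diamonds at 0 are the 26 genes themselves (log2 of Tn mean over WT mean). The neighbours scatter around 0 on both sides, and more of them rose (153) than fell (95). The window of D17H6S56E-5 alone holds 50 of those that rose and 6 of those that fell.

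Relatives by name were looked at where 2 to 30 genes share a symbol root, which left out D17H6S56E-5, Lrrc55, Ctsk, Dcstamp, Vcan, Tmem200a, Tnc and Lrrc15, and no relative of Insyn1 was tested. Of 98 genes that share a symbol root with one of the 26, 83 were tested, 27 fell and 11 rose. Over all protein-coding genes 18.7% fell and 22.4% rose. The ADAMTS family, with 16 tested, gave 10 of the 27 that fell and none of those that rose. Beside the 10 ADAMTS genes that fell, Epha4 fell (log2 fold change -1.29 ± 0.37, adjusted p = 0.0164), and Epha2 had 143 ± 32 CPM in Tn and 194.9 ± 25.1 CPM in WT tumours (log2 fold change -0.41 ± 0.14, adjusted p = 0.0353) with its call lost under 11 of 18 alternatives. Tenm3 (log2 fold change -0.94 ± 0.37, adjusted p = 0.0626), Hsd11b1 (log2 fold change -0.61 ± 0.36, adjusted p = 0.207) and Prom1 (log2 fold change -1.11 ± 0.46, adjusted p = 0.0774) were not called. Tenm3 was called lower in Tn under 3 of 18 alternatives and Prom1 under 2. Of 24 other Arhgef genes 6 fell and 4 rose.

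The spread among the WT tumours is given as a description, since the rule used their lowest and mean levels. The 26 genes varied more from one WT tumour to the next than other genes, with a median CV of 26.2% against 11.3% for the 10868 genes, and 24 of the 26 were above that median. Hsd11b2 varied most (49.9%), ahead of Slc9b2 (45.1%), Ctsk (40.6%) and Dcstamp (39%). Tnc (9.84%), Pgbd5 (10.7%), Acsl6 (11.5%) and D17H6S56E-5 (12.8%) were the steadiest. Without WT 2 the median was 20.2%, the lowest value with any WT tumour left out.

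**Figure D4:**
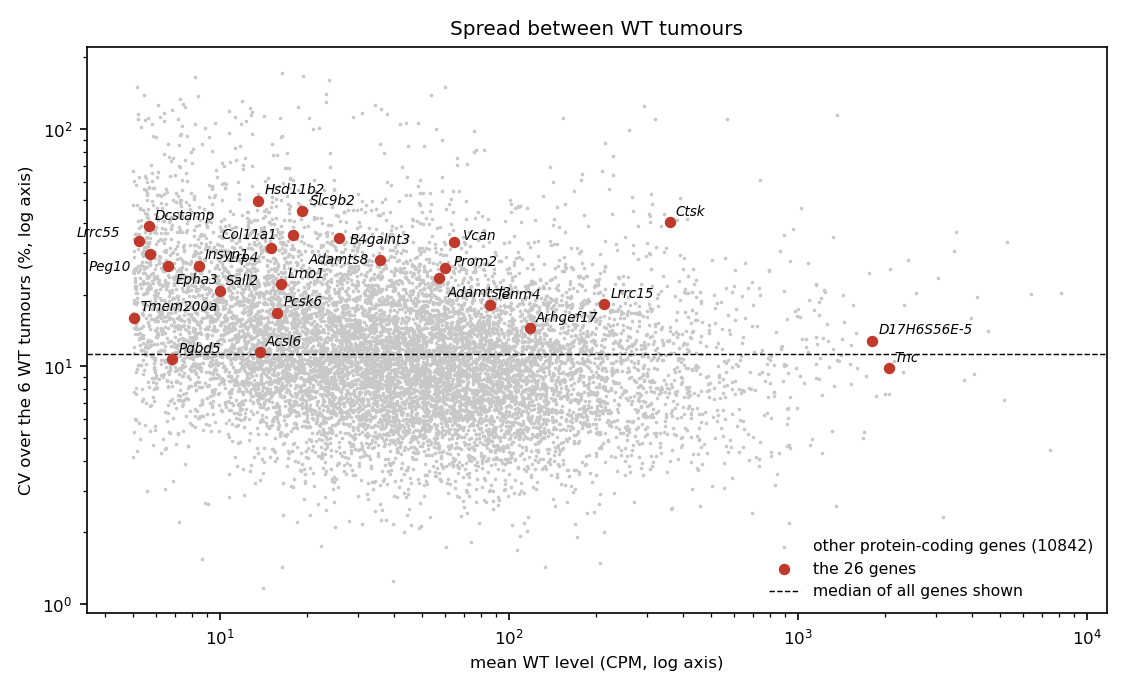
Coefficient of variation over the 6 WT tumours against the mean WT level, both on log axes, for the 26 genes (named) and 10842 other protein-coding genes, with the median of all as a dashed line. Of the 26, 24 lie above the line, with Tnc and Pgbd5 below it.

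The level of each gene was then correlated with that of each of 14 cell type marker lists, without any of the 26 in a list, over the 6 WT tumours, both as log2(CPM + 1) and the list as the mean over its genes. Of 364 pairs, 35 had a Pearson p under 0.05 in an exact two-sided permutation test, and 0 passed after Benjamini-Hochberg adjustment, the smallest adjusted p being 0.337. With 6 tumours the smallest p seen was 0.00139, from 720 pairings. The values are given as a description of these 6 tumours. They share libraries and the totals they are scaled by.

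The 3 osteoclast genes had their highest values with the osteoclast list. Between Slc9b2 and the osteoclast list, r was 0.98 (exact permutation p = 0.00694, adjusted p = 0.361), Spearman's rho was 0.83 (exact permutation p = 0.0583), and r without the 2 tumours farthest from the median was 0.87. Between Dcstamp and the osteoclast list, r was 0.98 (exact permutation p = 0.00278, adjusted p = 0.337), Spearman's rho was 0.94 (exact permutation p = 0.0167), and r without the 2 tumours farthest from the median was 0.90. Between Ctsk and the osteoclast list, r was 0.97 (exact permutation p = 0.0139, adjusted p = 0.389), Spearman's rho was 0.77 (exact permutation p = 0.103), and r without the 2 tumours farthest from the median was 0.80. These were the 3 highest correlations of all 364. Ctsk and Slc9b2 also had the highest correlation of any of 325 pairs among the 26 genes (r = 0.99), of which 46 had a permutation p under 0.05 and 0 passed the adjustment (smallest adjusted p = 0.251).

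Of the matrix genes, Vcan and Lrrc15 had their highest value with the fibroblast list. Tnc, Col11a1 and Pcsk6 had theirs with the pericyte and smooth muscle list, as did Peg10 and Lrp4 (r = 0.86 for Lrp4). Adamts8 and Adamtsl3 had theirs with other lists. Between Vcan and the fibroblast list, r was 0.92 (exact permutation p = 0.0139, adjusted p = 0.389), Spearman's rho was 0.94 (exact permutation p = 0.0167), and r without the 2 tumours farthest from the median was 0.96. Between Tnc and the pericyte and smooth muscle list, r was 0.95 (exact permutation p = 0.00278, adjusted p = 0.337), Spearman's rho was 0.94 (exact permutation p = 0.0167), and r without the 2 tumours farthest from the median was 0.86. Between Col11a1 and the pericyte and smooth muscle list, r was 0.91 (exact permutation p = 0.00139, adjusted p = 0.337), Spearman's rho was 1.00 (exact permutation p = 0.00278), and r without the 2 tumours farthest from the median was 0.96. Between Peg10 and the pericyte and smooth muscle list, r was 0.90 (exact permutation p = 0.00556, adjusted p = 0.361), Spearman's rho was 0.94 (exact permutation p = 0.0167), and r without the 2 tumours farthest from the median was 0.99. Between Pcsk6 and the pericyte and smooth muscle list, r was 0.91 (exact permutation p = 0.0139, adjusted p = 0.389), Spearman's rho was 0.83 (exact permutation p = 0.0583), and r without the 2 tumours farthest from the median was 0.47. For Pcsk6 r falls below 0.5 without the 2 tumours, which cannot show by itself that the relation rests on them. For Lrrc15, r with the fibroblast list was 0.72, and -0.47 without the 2 farthest tumours. Adamts8 was nearest to the osteoclast list (r = 0.91, and 0.34 without the 2 farthest tumours).

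Prom2, B4galnt3 and Hsd11b2 had their highest values with the epithelial list. Between B4galnt3 and the tumour epithelium list, r was 0.88 (exact permutation p = 0.025, adjusted p = 0.396), Spearman's rho was 0.77 (exact permutation p = 0.103), and r without the 2 tumours farthest from the median was 0.56. Between Hsd11b2 and the tumour epithelium list, r was 0.79 (exact permutation p = 0.0764, adjusted p = 0.607), Spearman's rho was 0.60 (exact permutation p = 0.242), and r without the 2 tumours farthest from the median was 0.86. Between Prom2 and the tumour epithelium list, r was 0.73 (exact permutation p = 0.0903, adjusted p = 0.632), Spearman's rho was 0.37 (exact permutation p = 0.497), and r without the 2 tumours farthest from the median was 0.42. Between Prom2 and B4galnt3 r was 0.94 (exact permutation p = 0.00556, adjusted p = 0.251), and 0.58 without the 2 farthest tumours. Prom2 ran against the macrophage list (r = -0.97, exact permutation p = 0.00417, adjusted p = 0.361).

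Adamtsl3, Acsl6, Pgbd5, Tenm4 and Arhgef17, which include the 4 genes with the largest ratios, had no high positive value with any list. Their highest r over the 14 lists was 0.47 for Adamtsl3 (neutrophil), 0.25 for Arhgef17 (macrophage), 0.19 for Acsl6 (osteoclast), 0.02 for Tenm4 (neutrophil) and -0.11 for Pgbd5 (osteoclast). Tenm4 and Adamtsl3 ran against stromal lists. Between Tenm4 and the fibroblast list, r was -0.94 (exact permutation p = 0.0139, adjusted p = 0.389), Spearman's rho was -0.77 (exact permutation p = 0.103), and r without the 2 tumours farthest from the median was -0.83. Between Adamtsl3 and the pericyte and smooth muscle list, r was -0.87 (exact permutation p = 0.0347, adjusted p = 0.486), Spearman's rho was -0.94 (exact permutation p = 0.0167), and r without the 2 tumours farthest from the median was -0.59. For Epha3 (r = 0.96) and Lrrc55 (r = 0.88) the highest value was with the macrophage list, and for Epha3 r was -0.10 without the 2 farthest tumours. Tmem200a was nearest to the mast cell and eosinophil list (r = 0.91) and Sall2 to the macrophage list (0.79). Lmo1 (0.75) and D17H6S56E-5 (0.60) were nearest to the osteoclast list, and Insyn1 (0.70) to the fibroblast list.

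**Figure D5:**
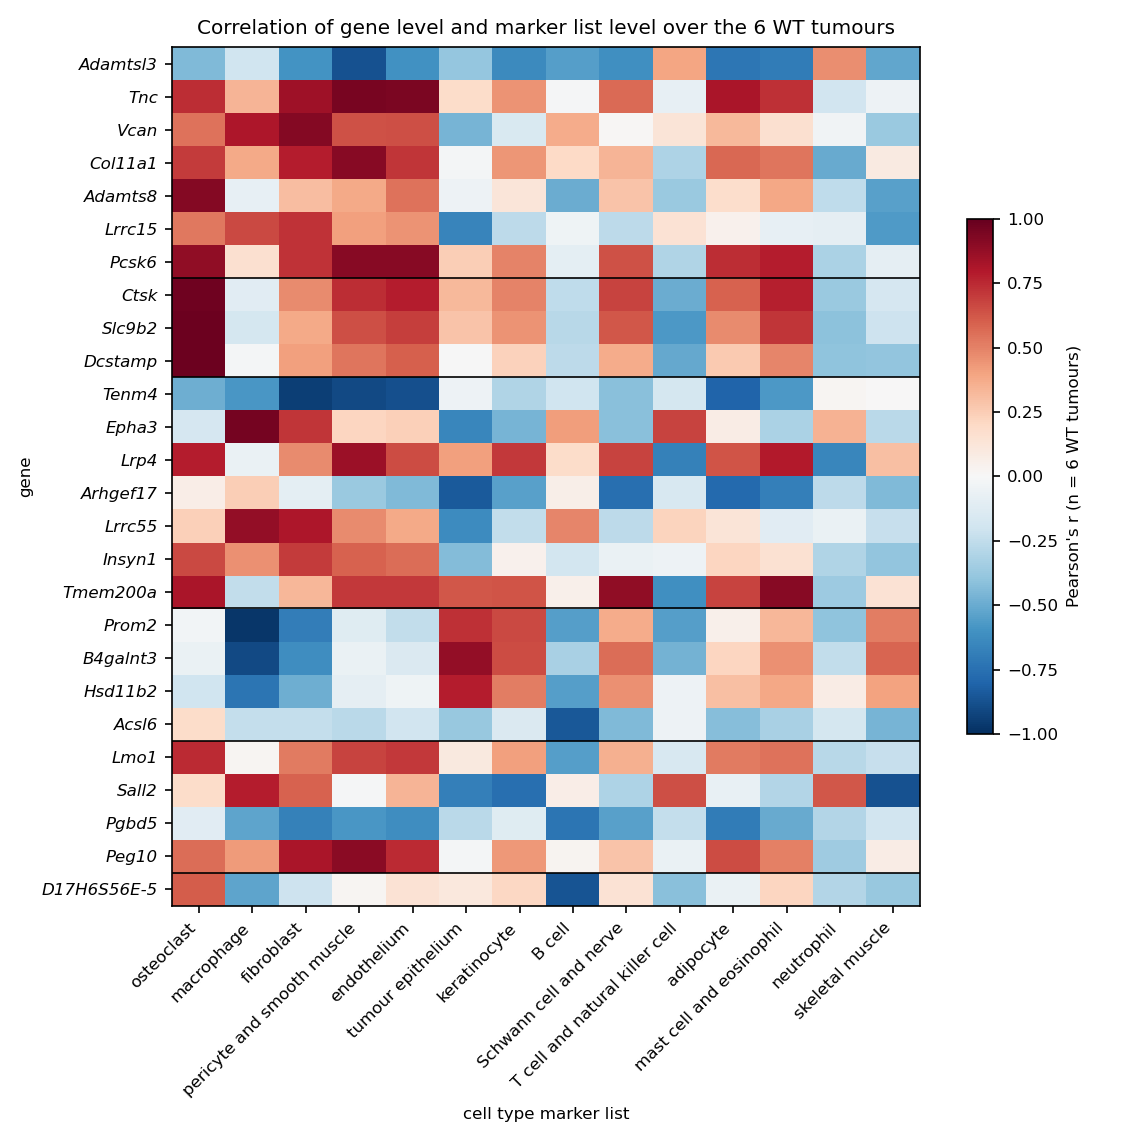
Pearson's r between the level of each of the 26 genes and of each cell type marker list over the 6 WT tumours, red for positive and blue for negative values. Ctsk, Slc9b2 and Dcstamp stand out under osteoclast, Vcan under fibroblast, Tnc, Col11a1 and Pcsk6 under pericyte and smooth muscle, Prom2, B4galnt3 and Hsd11b2 under tumour epithelium, and the rows of Adamtsl3, Tenm4, Arhgef17, Acsl6 and Pgbd5 are mostly pale or blue.

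The remaining lists moved as follows between the groups. Of the endothelial markers 9 of 11 fell, and 5 did so without Tn 4, Tn 6 and WT 6. They summed to 221 to 453 CPM in Tn tumours, against 358 to 674 CPM in WT tumours. All 10 T cell and natural killer cell markers rose (70.7 to 407 CPM in Tn, against 10.2 to 36.8 CPM in WT tumours), and so did the 4 tested B cell markers, of which DESeq2 and the fit with a replicate block called 0. Of 7 mast cell and eosinophil markers Cpa3 rose and Ccr3 fell, with 0 to 3 rising and 1 or 2 falling when 1 tumour was left out. Lep was the 1 of 6 adipocyte markers to fall, and without WT 1 there were 3. Of 10 neutrophil, 8 skeletal muscle and 4 keratinocyte markers, 0 were called by edgeR or DESeq2 and 0 had an unadjusted p under 0.05 by edgeR. Without Tn 4, 6 neutrophil markers fell, and 1 rose without Tn 5, while 1 skeletal muscle marker rose without Tn 2. Of the 11 tested genes of the MAL family and raft organisers, Mal, Mall and Plp2 fell and Marveld3 and Flot2 rose.

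Some tumours set the margins more often than others. The highest Tn value came from Tn 5 in 8 genes, from Tn 4 in 7, from Tn 6 in 7, from Tn 2 in 3 and from Tn 3 in 1. Tn 6 was also the lowest Tn tumour in 11. The lowest WT value came from WT 1 in 11 genes, from WT 5 in 6, from WT 6 in 4, from WT 2 in 3 and from WT 3 in 2. WT 2 was the highest in 9. WT 1 also had the lowest sum of fibroblast markers. Left out of the rule, WT 1 let 53 genes through, all 26 among them.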

How the data were processed

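Poly(A) RNA of 12 tumours, 6 Tn and 6 WT, was sequenced in pairs from stranded libraries. FastQC, fastp 0.23, STAR 2.7.11a and featureCounts (Subread 2.1.1) are the tools in the submitters' processing notes. The deposited values are raw counts, which per the file headers the authors summed over the exons of each Ensembl 112 gene on GRCm39. Both ends had to map, strand was ignored and reads were counted in place of pairs. Totals were 113575859 to 156880766 counts, and counting error matters most at the lowest counts.

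Gene types and symbols came from GENCODE M39, which matched 56630 of 57186 identifiers. CPM are counts over the column total, without further scaling. The 26 genes, the 14 cell type lists and the 6 pathway lists were chosen with earlier results of these data known. Genes named outside the 26 are those of the lists, relatives with the same symbol root (families of 2 to 30 genes), the nearest tested gene on each side and the genes nearest below the margin, and some of all these are not reported here. C1galt1c1 was named as the check of the labels, and P2ry2, Kcnq1ot1 and the overlapping lncRNAs after their values were seen. Tests came from an edgeR 4.0.16 quasi-likelihood fit (R 4.3.3) of 19255 genes, with TMM scaling, filterByExpr, robust estimation and Benjamini-Hochberg adjustment at 0.05, which was tested on simulated data. Log2 fold changes are Tn over WT with their standard error, and "fell", "rose" and "called" refer to this fit. The series text calls the tumours biological replicates without saying how many mice carried them, and p-values measure the spread between these tumours. Correlations over WT tumours used an exact two-sided permutation test (Python 3.11.15, numpy 2.4.6, pandas 2.3.3). DESeq2 1.42.0, RLE scaling, other filters, a replicate block, other margins and left-out tumours were tried as alternatives.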

Additional observations from a re-analysis of the deposited data

Results flagged for a closer look

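In 54 groups of 6 tumours, those of the 26 genes and of C1galt1c1, 6 held a tumour that stood farther from its nearest neighbour, relative to the range of its group, than the 95% critical value of Dixon's test allows. Chance gives about 1 group in 20 where groups are independent and not chosen on their levels. These groups share the same tumours, and the 26 genes were chosen on these levels. That rate is therefore no yardstick for the 6. For Adamtsl3, Tn 4 had 1.12 CPM, while the other Tn tumours had 0.0637 to 0.289 CPM. For Lmo1, Tn 6 had 1.79 CPM, while the other Tn tumours had 0.252 to 0.676 CPM. Tn 6 was low for Vcan, with 9.01 CPM beside 12.5 to 14.6 CPM in the other Tn tumours, and for Epha3, with 0.595 CPM beside 1.11 to 1.39 CPM. For Tenm4, WT 1 had 114.9 CPM, while the other WT tumours had 74.2 to 88.9 CPM. For Lrrc15, WT 2 had 289.7 CPM, while the other WT tumours had 179 to 209.7 CPM. Tn 4 had the highest sum of B cell markers of the 12 tumours, Tn 6 that of keratinocyte markers and WT 2 that of fibroblast markers, and their part in these values was not tested.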

How the results depend on the processing

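The number of genes selected depends on the margin. It was 26 at 2.5, 54 at 2, 5 at 5 and 2 at 10, and 42 with a mean WT level of at least 1 CPM. It was 22 with TMM-scaled CPM, without Lrp4, Lrrc15, Peg10 and Tmem200a. With 1 tumour left out it ran from 25 to 53, the highest without WT 1, and without Tn 4, Tn 6 and WT 6, an alternative chosen after seeing the data, it was 45. The genes called numbered 7094, and 6131 to 7061 with 1 tumour left out. Of the genes of the lists, relatives and neighbours, 137 were called, 123 to 148 with 1 tumour left out and 116 to 151 under the other alternatives. The median CV of the 26 genes over WT tumours was 26.2%, and 20.2% to 27.1% with 1 WT tumour left out. No correlation with a list passed the adjustment with CPM or TMM-scaled CPM. Of 69 named genes outside the 26, 57 had the same call under all 18 alternatives, and the other 12 lost or gained a call under some, with 0 reversed. The cause of these changes was not tested. The main fit did not pair the tumours by replicate number. Deviations of same-numbered tumours correlated at -0.153 to 0.208, which cannot show whether they were paired. With the replicate block 2878 genes were lower and 2998 higher in Tn (3342 and 3752 without it). Counts were as low as 6 (Pgbd5 in Tn 5), where counting error adds to the spread.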
